A study of Mus musculus with 14 samples.

Results

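The genes described are the protocadherins, taken as every row of the deposited count table whose gene symbol starts with Pcdh. They were 37 of 34193 rows. Of these, 25 were clustered genes (2 alpha rows, 22 beta rows and 1 gamma row) and 12 were non-clustered genes. Total RNA of the cerebral cortex was sequenced from 14 C57BL/6J mice at 8 weeks of age. The groups were 7 Dnmt3a heterozygous knockout mice and 7 wild-type mice from the same litters, with 4 females and 3 males in each. Dnmt3a encodes a DNA methyltransferase that sets methyl marks in neurons after birth. The sources used here do not say how the knockout allele was made or whether it is limited to some cells. They also do not tie an animal to a litter, so p-values measure the spread between these animals. The tissue was bulk cortex, so fewer cells of a type and less RNA per cell cannot be told apart.

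Protocadherins are cadherin-type adhesion proteins of the cell surface. The clustered genes stand in alpha, beta and gamma arrays on mouse chromosome 18, each variable exon has its own promoter, and a neuron uses only some of them. The combination gives the cell a surface identity through which its own branches recognise and avoid each other. Promoter choice in the arrays involves the insulator protein CTCF, cohesin and DNA methylation, and Dnmt3b, a relative of Dnmt3a, is known to methylate these promoters during development. The non-clustered genes are single genes on several chromosomes. Delta-1 members (Pcdh1, Pcdh7, Pcdh9, Pcdh11x) and delta-2 members (Pcdh8, Pcdh10, Pcdh17, Pcdh18, Pcdh19) shape the sorting, wiring and synapses of neurons.

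Total counts per animal ranged from 8951835 to 14335406. Dnmt3a itself, the targeted gene, was at 146 ± 14.2 CPM (counts scaled to the library size of each animal, as a rate per 1e6 counts) in wild-type and 99.0 ± 11.4 CPM in heterozygous mice (SD, n = 7 each). The genotypes did not overlap, as wild-type values began at 124 CPM and heterozygous values ended at 118 CPM. Sample titles begin with a number, and the 6 animals with prefixes 119 and 141 (3 of each genotype) differed widely from the 8 animals with prefixes 046, 047, 048 and 139 (4 of each genotype). What this number stands for is not stated, and each prefix holds animals of 1 sex. Results are therefore given for all animals and for each set of prefixes. Wild-type replicates 5 to 7 and heterozygous replicates 5 to 7 are the animals of prefixes 119 and 141. Replicate 5 of each genotype has prefix 119, and replicates 6 and 7 of each genotype have prefix 141. All 12 markers of cortical excitatory neurons were detected, at a summed level of 5715 to 7482 CPM over the animals.

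Of the 37 genes, 35 passed the filter on low counts, 24 of them clustered and 11 non-clustered. Pcdh12, a gene of blood vessel endothelium, had 1 to 8 reads per animal, and Pcdhb1 had 0 to 6 reads. Neither of these was tested. Levels between genes were compared per kilobase (kb) of annotated exon. Among non-clustered genes Pcdh9 had the highest level, at 32.1 ± 4.16 CPM per kb (SD, n = 14). Pcdh1 followed at 29.0 ± 4.76, Pcdh10 at 27.2 ± 1.66 and Pcdh7 at 24.6 ± 4.44 CPM per kb. The SD ranges of neighbours in this order overlapped. These SDs are between animals, and whether the order of the 4 genes holds within each animal was not tested. Pcdh17 (15.3 ± 0.999) and Pcdh8 (14.9 ± 2.97 CPM per kb) formed the next pair, also with overlapping SD ranges. Pcdh19, an X-linked gene mutated in an epilepsy that mainly affects females, was at 10.5 ± 1.50 CPM per kb. Pcdh20 was at 7.78 ± 0.720 CPM per kb. Pcdh11x, also X-linked, was at 3.06 ± 0.186, Pcdh18 at 2.08 ± 0.245, and Pcdh15, a component of the tip link of inner ear hair cells, at 1.56 ± 0.153 CPM per kb. Pcdh12 was lowest at 0.0623 ± 0.0353 CPM per kb. The 21 tested beta genes were lower than most non-clustered genes, from 0.708 ± 0.201 CPM per kb in Pcdhb6 to 5.04 ± 0.889 in Pcdhb20 and 4.99 ± 0.776 in Pcdhb17. Beta genes are close copies of each other, so reads shared between copies could be divided or dropped by the counting, and the level of a single beta gene is uncertain for that reason. Exon lengths are of GENCODE, and in some beta genes they exceed the whole span in RefSeq. Pcdhb17 had 4660 bases of exon and a span of 3.270 kb, and Pcdhb14 had 8695 bases and 3.438 kb. The order of beta genes per length therefore depends on the annotation.

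**Figure D1:**
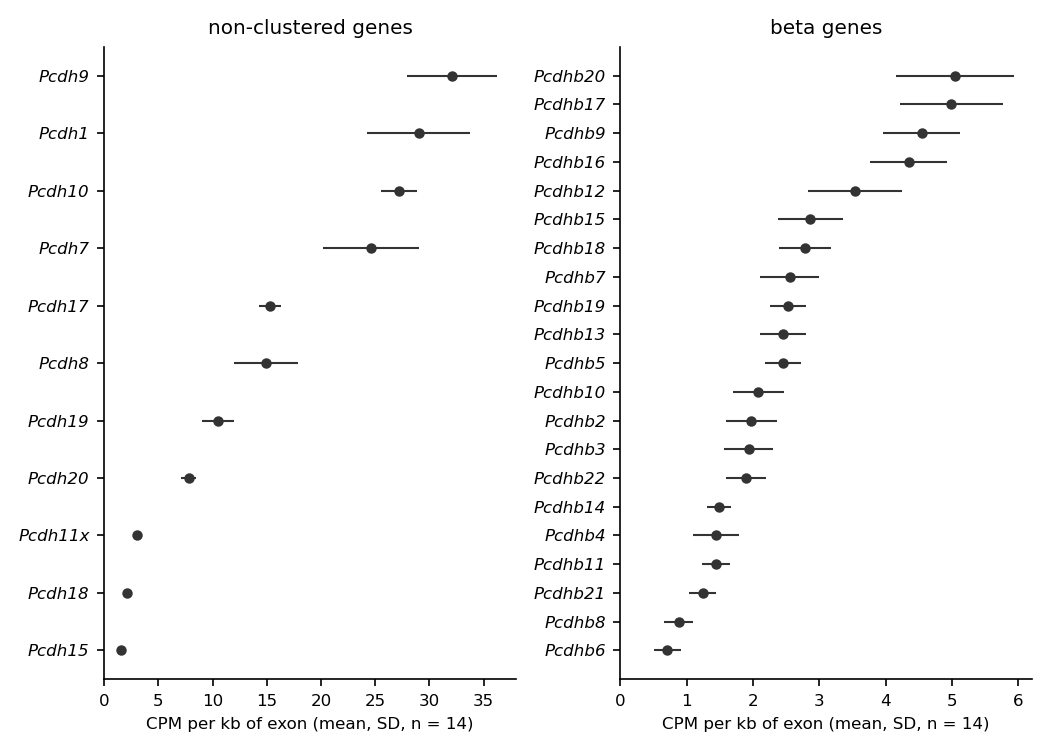
Mean level of each tested non-clustered gene (left) and beta gene (right) in CPM per kb of exon on the horizontal axis, over 14 animals, with bars of 1 SD. Pcdh9, Pcdh1, Pcdh10 and Pcdh7 stand highest with overlapping bars, and every beta gene lies at or under 5.04 CPM per kb.

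The alpha array was represented by the rows Pcdha1 and Pcdha3, and the gamma array by the row Pcdhga11. RefSeq lists 14 alpha, 22 beta and 22 gamma genes on the chromosome. Genes of the alpha array share their last exons, as do those of the gamma array, and the sources used here do not say which gene models these 3 rows stand for. Their values may therefore hold reads of the whole array, and no level per length is given for them. Pcdhga11 had the most counts of all members, 8006 to 13931 reads per animal, and Pcdha1 had 2146 to 5010, whereas Pcdha3 had 37 to 78.

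Promoters are shown for 3 non-clustered genes that the comparisons below turn on. Pcdh7 and Pcdh9 were higher in heterozygotes of prefixes 119 and 141. Pcdh8 was lower in the animals of those prefixes as a set, as were Pcdh7 and Pcdh9. RefSeq sequences of the GRCm38.p6 build (250 bases before to 50 after the start of the gene, each on its gene's strand) were found for 9 of the 37 members, with a further window for Pcdh9 that is not printed. All 9 are non-clustered genes, so no promoter of the clustered arrays was examined. This build is not the mm9 build of the counts. Capitals mark CCCTC and its reverse complement GAGGG, the letters after which CTCF is named, and a match of so short a word does not show a binding site.
Pcdh7 (chr5:57717831-57718130, plus strand): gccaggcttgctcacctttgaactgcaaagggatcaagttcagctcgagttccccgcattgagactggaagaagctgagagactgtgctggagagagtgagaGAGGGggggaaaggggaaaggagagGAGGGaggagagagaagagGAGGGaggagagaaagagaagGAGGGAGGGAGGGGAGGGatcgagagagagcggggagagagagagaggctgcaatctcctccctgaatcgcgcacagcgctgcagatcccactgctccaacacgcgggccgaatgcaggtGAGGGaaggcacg
Pcdh8 (chr14:79771263-79771562, minus strand): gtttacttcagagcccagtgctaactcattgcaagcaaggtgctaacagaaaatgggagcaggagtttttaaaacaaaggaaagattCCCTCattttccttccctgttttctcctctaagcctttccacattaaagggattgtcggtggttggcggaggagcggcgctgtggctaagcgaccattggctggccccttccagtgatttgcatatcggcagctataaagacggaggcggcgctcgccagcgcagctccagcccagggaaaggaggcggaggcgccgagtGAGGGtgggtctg
Pcdh9 (chr14:93890620-93890919, minus strand): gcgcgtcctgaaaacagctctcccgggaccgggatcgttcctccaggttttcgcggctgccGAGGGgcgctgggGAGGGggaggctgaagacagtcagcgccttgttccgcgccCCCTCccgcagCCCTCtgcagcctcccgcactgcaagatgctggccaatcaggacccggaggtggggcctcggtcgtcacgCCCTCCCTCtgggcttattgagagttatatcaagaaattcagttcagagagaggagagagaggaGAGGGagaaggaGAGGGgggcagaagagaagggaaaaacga
Counted on both strands with overlapping matches, the word CCCTC occurred 8 times in the window of Pcdh7 and 8 times in that of Pcdh9. At least 8 matches were found in 0.49% of 32851 mouse promoters of the same length. The window of Pcdh8 held 2 matches, and 35.9% of promoters held at least 2. The other 6 members with a sequence held 0 to 6 matches, with 6 in Pcdh18. CG pairs, the usual sites of methylation, numbered 11 in Pcdh7, 14 in Pcdh8 and 19 in Pcdh9, against a median of 7 over all promoters. At least as many were found in 41.4%, 36.3% and 28.1% of promoters. The cyclic AMP response word TGACGTCA was in none of the 9 windows and in 1.79% of all promoters. Methylation and binding at these windows were not analysed here.

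Across all 14 animals, no difference in protocadherin RNA between genotypes was detectable. None of the 35 tested members passed an adjusted p of 0.05 by edgeR, where 0.0145% of 13815 genes passed. At an unadjusted p under 0.05 the count was also 0 of 35, against 4% of all genes (1.75% higher and 2.24% lower), and DESeq2 called 0 of them. Log2 fold changes (heterozygous over wild type) were positive in 16 of 24 clustered and 9 of 11 non-clustered genes, and in 50.9% of all genes. The clustered count was 11 of 24 without wild-type replicate 5 and 22 of 24 without wild-type replicate 1. The median was 0.039 in clustered and 0.042 in non-clustered genes, against 0.0024 over all genes. When the prefix of the title replaced sex as a block, 0 of 35 members passed, against 0.405% of genes. Under that block 3 members were higher at an unadjusted p under 0.05 and 0 lower, against 6.2% and 6.7% of genes, and 27 of 35 had a positive value, against 51.1%. In simulated counts of 14 animals without a difference between the sets of prefixes, edgeR found 52.2% of genes changed 1.25-fold and 86.6% of genes changed 1.5-fold. The real counts hold a set difference, which this fit leaves in the spread, so the shares found there are likely lower.

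Pcdhga11 and Pcdha1, the clustered rows with the most reads, had nested ranges. Pcdhga11 ran from 801 through a median of 981 to 1025 CPM in wild-type mice and from 877 through 950.4 to 1015 CPM in heterozygotes. The heterozygous range lay inside the wild-type range, and the log2 fold change was 0.033 (95% interval -0.11 to 0.17, adjusted p = 0.981 by edgeR). Pcdha1 ran from 219 through 318 to 369 CPM in wild-type and from 286 through 333 to 342 CPM in heterozygous mice, again nested, with a log2 fold change of 0.086 (SE 0.10). Pcdhb4 had the largest difference, 4.79 ± 1.41 CPM in wild-type and 5.93 ± 0.863 CPM in heterozygous mice (SD, n = 7 each), with values of 3.21 to 7.41 against 4.98 to 6.96 CPM. Its log2 fold change of 0.32 (SE 0.16) had an adjusted p of 0.978 by edgeR. Among delta-1 genes the log2 fold changes were 0.15 for Pcdh9 (SE 0.091), 0.15 for Pcdh7 (SE 0.13), 0.054 for Pcdh1 and 0.042 for Pcdh11x. Delta-2 genes lay at -0.077 in Pcdh8, -0.087 in Pcdh18, 0.020 in Pcdh10, 0.027 in Pcdh17 and 0.075 in Pcdh19. Pcdh15 was at 0.11 and Pcdh20 at 0.029. The lowest value was that of Pcdhb7, -0.19 (SE 0.12). Over the tested members the 95% intervals ended between -0.44 (Pcdhb7) and 0.65 (Pcdhb4) on the log2 scale. Of the 37 genes, 28 had a positive and 9 a negative log2 fold change in the authors' deposited table, and none of the 35 with an adjusted p was under 0.05, where 0.191% of genes were. The smallest adjusted p in the authors' deposited table was 0.458, for Pcdh7.

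In the animals of prefixes 119 and 141, 4 protocadherins were higher in heterozygotes: Pcdh9, Pcdh7, Pcdha1 and Pcdhb4. These were 4 of 35 tested members, 2 of 11 non-clustered and 2 of 24 clustered, and none was lower. Over all genes 4.87% passed, 2.18% as higher and 2.69% as lower. At an unadjusted p under 0.05, 11 of 35 members were higher and 0 lower, against 11.1% and 10.4% of all genes. Pcdh9 and Pcdh7 are delta-1 adhesion proteins, and Pcdh7 is known to bind a protein phosphatase through its cytoplasmic tail. Log2 fold changes were positive in all 24 tested clustered genes and in 9 of 11 non-clustered genes, against 49.9% of all genes, and the exceptions were Pcdh8 (-0.10) and Pcdh18 (-0.038). The median was 0.21 in clustered and 0.14 in non-clustered genes, against -0.00040 over all genes.

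Pcdh9 was at 177, 155 and 167 CPM in wild-type replicates 5, 6 and 7, and at 217, 203 and 233 CPM in heterozygous replicates 5, 6 and 7. The lowest heterozygote, replicate 6, exceeded the highest wild-type animal (log2 fold change 0.39 ± 0.082 SE, adjusted p = 0.0105 by edgeR). Pcdh7 was at 209.9, 172 and 173 CPM in the wild-type and 239, 217 and 249.5 CPM in the heterozygous animals. Its groups also did not overlap (log2 fold change 0.35 ± 0.092 SE, adjusted p = 0.0333 by edgeR). Pcdha1 was at 289, 219 and 229.9 CPM in wild-type and 339.7, 286 and 296 CPM in heterozygous mice. Here the lowest heterozygote lay under the highest wild-type animal, and the gene rose by 0.32 ± 0.082 on the log2 scale (adjusted p = 0.0267 by edgeR). Pcdhb4 rested on few reads, 38 to 104 per animal over the 14 mice, and was at 3.21, 4.19 and 4.46 CPM in wild-type and 6.40, 6.81 and 6.96 CPM in heterozygous mice. The groups did not overlap, and the log2 fold change was the largest of the tested members in this set, 0.77 (95% interval 0.37 to 1.18, adjusted p = 0.0275 by edgeR).

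Each of these calls was lost when some single animals were left out. Without wild-type replicate 6, wild-type replicate 7, heterozygous replicate 5 or heterozygous replicate 7 there were 0 protocadherin calls, among 0, 72, 18 and 2 called genes in all. The log2 fold changes stayed between 0.32 and 0.43 for Pcdh9, 0.29 and 0.46 for Pcdh7, 0.26 and 0.43 for Pcdha1, and 0.70 and 0.84 for Pcdhb4 over all animals left out in turn. DESeq2 on all animals called Pcdh9, Pcdh7 and Pcdha1 and gave no adjusted p for Pcdhb4. Fitted on these 6 animals alone with the title prefix as a block, which is the same as sex here, 7 of 35 protocadherins passed against 16.6% of genes, the added members being Pcdh19, Pcdhb17 and Pcdhb20.

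**Figure D2:**
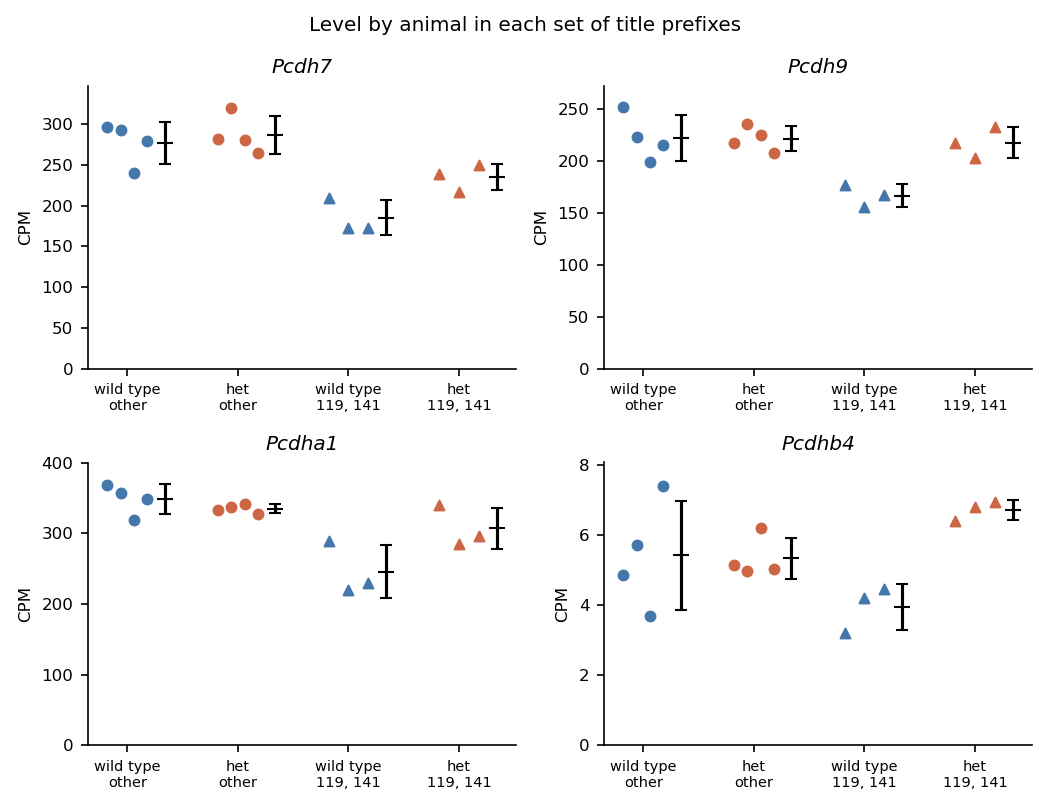
Level of Pcdh7, Pcdh9, Pcdha1 and Pcdhb4 in CPM (vertical axes, from 0) in each animal, by genotype and set of prefixes, with circles for prefixes 046, 047, 048 and 139, triangles for prefixes 119 and 141, and bars for the mean and 1 SD. In each gene the lowest point is a wild-type animal of prefixes 119 and 141, and the Pcdhb4 values of these animals (3.21 to 4.46 CPM) lie under the 6.40 to 6.96 CPM of heterozygotes of that set.

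The remaining members had mostly positive values in this set without passing the test. Beta genes had log2 fold changes of 0.022 (Pcdhb22) to 0.77 (Pcdhb4). Pcdhb17 was at 20.6, 17.1 and 17.2 CPM in wild-type and 21.8, 23.1 and 21.3 CPM in heterozygous mice. Those groups did not overlap, and Pcdhb17 had a log2 fold change of 0.26 ± 0.10 SE (adjusted p = 0.130 by edgeR). Pcdhga11 was at 879, 818 and 801 CPM in wild-type and 996, 877 and 882 CPM in heterozygous mice, a log2 fold change of 0.14 ± 0.067 SE (adjusted p = 0.222 by edgeR). All heterozygotes lay above all wild-type animals in 13 members (Pcdh7, Pcdh9, Pcdh10, Pcdh17, Pcdh19, Pcdhb2, Pcdhb4, Pcdhb9, Pcdhb10, Pcdhb11, Pcdhb13, Pcdhb16 and Pcdhb17), and in 10.8% of all genes. Among delta-2 genes, whose members Pcdh10, Pcdh17 and Pcdh19 bind the actin-regulating WAVE complex, Pcdh10 (0.11), Pcdh17 (0.14) and Pcdh19 (0.18) had positive log2 fold changes that did not pass. Pcdh8, at 59.5, 50.8 and 40.8 CPM in wild-type and 50.5, 46.8 and 43.5 CPM in heterozygous mice, had a negative one of -0.10 (SE 0.12).

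Summed over rows, the beta level in this set was 184 ± 5.95 CPM in wild-type and 217 ± 9.67 CPM in heterozygous mice (SD, n = 3 each), and the groups did not overlap. The non-clustered sum was 1365 ± 90.9 against 1553 ± 45.4 CPM, also without overlap. The alpha sum was 249.6 ± 37.4 against 311 ± 28.5 CPM and the gamma row 833 ± 40.8 against 918 ± 67.1 CPM, and in both the lowest heterozygote lay under the highest wild-type animal. In the other prefixes (n = 4 each) the sums were 248 ± 16.8 against 231 ± 3.01 CPM for beta, 353.9 ± 20.8 against 340.4 ± 6.94 CPM for alpha, 998 ± 21.1 against 971 ± 31.6 CPM for gamma and 1705 ± 134 against 1692 ± 81.0 CPM for non-clustered genes. Sums over rows are descriptions without a test, and whether reads of shared exons enter more than 1 row is unknown.

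**Figure D3:**
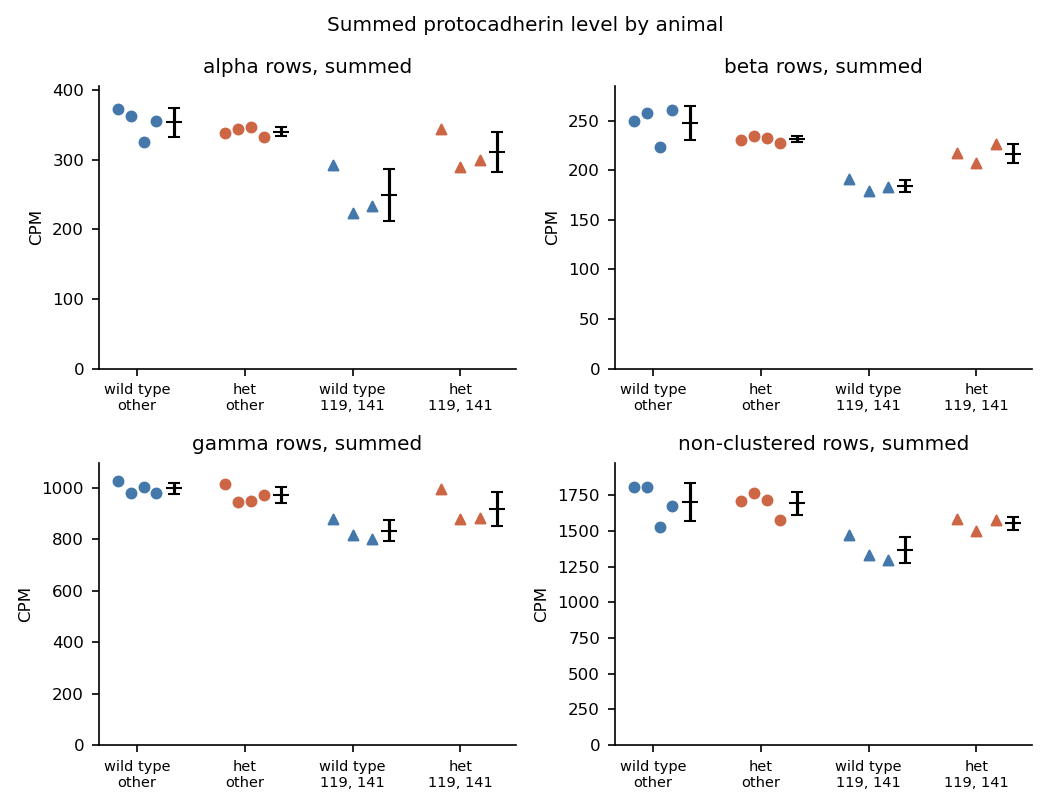
Summed level in CPM (vertical axes, from 0) of the alpha, beta, gamma and non-clustered rows in each animal, by genotype and set of prefixes, with circles for prefixes 046, 047, 048 and 139, triangles for prefixes 119 and 141, and bars for the mean and 1 SD. In prefixes 119 and 141 the beta sums of wild-type animals (179 to 191 CPM) lie under those of heterozygotes (207 to 226 CPM).

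Other RNAs differed between the genotypes of prefixes 119 and 141 as well. All 12 astrocyte markers had negative log2 fold changes there (median -0.32), 5 of them called (Gjb6, Aldh1l1, Slc1a3, Clu and Fgfr3), and their sums of 13698 to 18286 CPM in wild-type overlapped those of heterozygous mice, 12846 to 14807 CPM. All 10 microglial markers were negative (median -0.30, with C1qb called), and their sum was 405 to 459 against 359 to 393 CPM. Of the 8 markers of oligodendrocyte precursors 6 were positive, with Tnr called, and the sum was 355 to 390.4 against 404 to 453 CPM. Of 10 oligodendrocyte markers 8 were positive, with Mag and Cldn11 called, at sums of 4775 to 6239 against 4514 to 6144 CPM. Of the 12 markers of excitatory neurons 8 were positive (median 0.12), with Neurod6 called as higher and Camk2a as lower. Their sum, of which Camk2a alone made 3123 to 5587 CPM over the animals, was 6871 to 7482 against 5826 to 6406 CPM. The 9 interneuron markers, of which 7 were positive and 0 called, summed to 588 to 746 against 687 to 750.03 CPM. The 15 immediate early genes, markers of recent neuronal activity, had 13 positive values and 0 calls, at sums of 719 to 1385 against 866 to 1491 CPM. Positive values numbered 2 of 12 for endothelial cells and pericytes, 1 of 10 for meninges and fibroblasts, 3 of 5 tested for choroid plexus (Enpp2 called as higher) and 6 of 9 for striatum. The choroid plexus sum, nearly all of it Enpp2 (137 to 222 CPM over the animals, with the defining marker Ttr at 0.338 to 3.10 CPM), was 147 to 179.9 against 206 to 229.0 CPM, and the meningeal sum 289.7 to 394 against 246 to 283 CPM. None of the markers in these lists was at 0 in every animal of the study. Folr1, Otx2 and Kcne2 had lowest values of 0 and highest values of 0.920, 0.204 and 0.161 CPM over the animals. Whether a marker was at 0 throughout a single group was not tested. Mitochondrial RNA took 1.82% of counts in the wild-type and 1.37% in the heterozygous mice of this set, against 0.697% in the other prefixes. The part of these differences in the protocadherin result was not tested.

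In the animals of prefixes 046, 047, 048 and 139, no protocadherin passed the test, where 0.00724% of genes did, and DESeq2 also called 0 members. At an unadjusted p under 0.05, 2 members were lower and none was higher, against 1.93% and 2.53% of all genes (4.47% in either direction). Log2 fold changes were positive in 3 of 24 clustered and 4 of 11 non-clustered genes, against 50.4% of all genes. Without heterozygous replicate 3 these counts were 8 and 7, and without wild-type replicate 4 they were 3 and 1. The median was -0.077 in clustered and -0.0069 in non-clustered genes, against 0.00083 over all genes. Pcdhb7 was at 11.0, 10.4, 10.6 and 11.5 CPM in wild-type replicates 1 to 4 and at 9.02, 8.44, 8.15 and 7.47 CPM in heterozygous replicates 1 to 4. The genotypes did not overlap, with heterozygotes lower, as in 1.37% of all genes, and the log2 fold change of -0.40 (SE 0.12) had an adjusted p of 0.820 by edgeR. Pcdhb17 had a log2 fold change of -0.19 (SE 0.085, adjusted p = 0.999 by edgeR), at 27.2 ± 1.96 against 23.9 ± 1.46 CPM (SD, n = 4 each).

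The genes called in prefixes 119 and 141 showed no detectable difference here. Pcdh9 was at 215, 252, 223 and 199 CPM in wild-type and 225, 217, 208 and 235 CPM in heterozygous mice, with a log2 fold change of -0.0069 (95% interval -0.15 to 0.14). Pcdh7 was at 279.5, 296, 293 and 239.5 CPM in wild-type and 280.2, 282, 264 and 319 CPM in heterozygous mice, with a log2 fold change of 0.047 (95% interval -0.12 to 0.21). Pcdha1 was at 349, 369, 357 and 318 CPM in wild-type and 342, 333, 328 and 338 CPM in heterozygous mice, a log2 fold change of -0.058 (95% interval -0.20 to 0.087). In all 3 genes the genotypes overlapped. Pcdhb4 had wild-type values of 7.41, 4.85, 5.72 and 3.68 CPM and heterozygous values of 6.21, 5.15, 5.02 and 4.98 CPM, nested within them, with a log2 fold change of -0.0032 (95% interval -0.35 to 0.35).

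**Figure D4:**
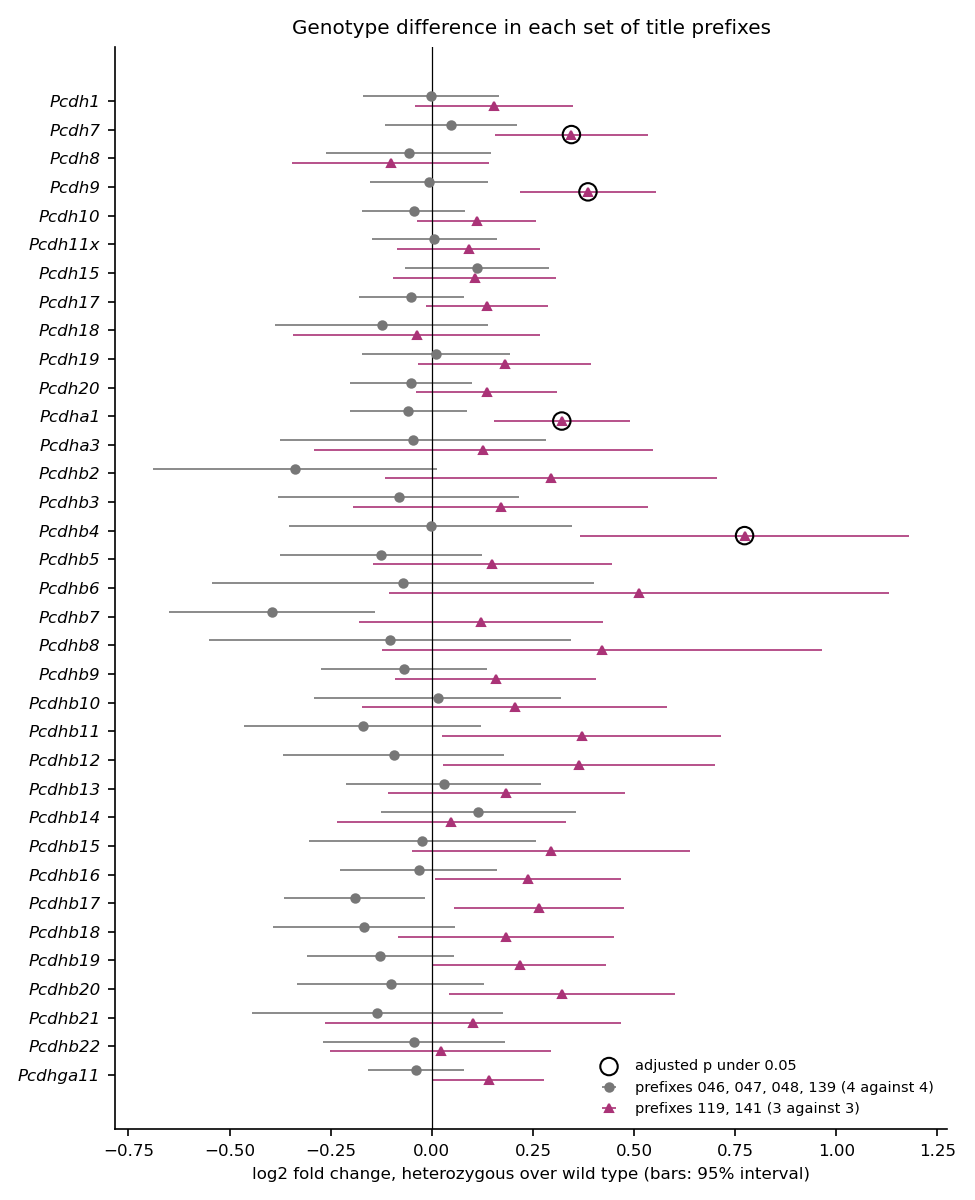
Log2 fold change, heterozygous over wild type (horizontal axis), of each of 35 tested members with its 95% interval, as grey circles for prefixes 046, 047, 048 and 139 and magenta triangles for prefixes 119 and 141, with a ring around values past an adjusted p of 0.05. Triangles lie right of 0 in 33 of 35 members and circles in 7 of 35.

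The difference of the genotype effect between the sets was tested directly, and no member passed. Over all genes 0 passed as well by edgeR, with 14.7% of genes at an unadjusted p under 0.05 and 250 genes called by DESeq2. At that unadjusted level 12 of 35 members were higher in prefixes 119 and 141 and 0 lower, against 7.4% and 7.34% of genes. The log2 difference was 0.39 for Pcdh9 (95% interval 0.17 to 0.62, adjusted p = 0.110 by edgeR), 0.38 for Pcdha1 (0.16 to 0.60, adjusted p = 0.119 by edgeR), 0.46 for Pcdhb17 (0.18 to 0.73, adjusted p = 0.124 by edgeR) and 0.30 for Pcdh7 (0.049 to 0.55, adjusted p = 0.249 by edgeR). Pcdhb4 had the largest value, 0.78 (0.24 to 1.31, adjusted p = 0.170 by edgeR), and Pcdhb7 had 0.52 (adjusted p = 0.209 by edgeR). The log2 difference was positive in 23 of 24 clustered and 9 of 11 non-clustered genes, against 49.1% of all genes. With the title prefix as a block, 4 members passed (Pcdh7, Pcdh9, Pcdha1 and Pcdhb17), against 5.55% of genes, and DESeq2 without a block called Pcdh9 and Pcdha1. Without wild-type replicate 4 or wild-type replicate 5, 5 members passed by edgeR.

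More members differed between the sets of prefixes than between genotypes. In the animals of prefixes 119 and 141, 20 of 35 members were lower than in the other animals and none was higher. Over all genes 38.8% passed and 19.6% passed as lower. The sets are made of whole prefixes and the test treats animals as independent. Its p-values therefore do not measure the spread between prefixes. The lower members were 15 of 24 clustered genes (2 alpha, 12 beta and the gamma row) and 5 of 11 non-clustered genes. The log2 difference was positive in 0 of 24 clustered and 2 of 11 non-clustered genes, against 49.8% of all genes. Its median was -0.27 in clustered and -0.083 in non-clustered genes, against -0.0013 over all genes. Leaving out 1 animal at a time gave 15 to 21 called members. On the log2 CPM scale, 32 of 35 members lay below their 14-animal mean in each of the 3 wild-type animals of prefixes 119 and 141. In the heterozygotes of that set the count was 20, 26 and 19 of 35, and in the other animals it ran from 3 to 18. The share of all genes below their mean was not computed, so how unusual these counts are is not known.

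Pcdh8, an adhesion protein known to be induced by neuronal activity, was at 56.7, 66.5 and 77.8 CPM (lowest, median, highest) in the 8 animals of the other prefixes and at 40.8, 48.6 and 59.5 CPM in the 6 animals of prefixes 119 and 141. Its ranges overlapped slightly, with a log2 difference of -0.46 (SE 0.075, adjusted p = 5.73e-05 by edgeR). Immediate early genes were lower in the same animals, 13 of 15 called with a median log2 difference of -0.83, and their part in the Pcdh8 result was not tested. Pcdh7 (-0.43, SE 0.071) and Pcdh1 (-0.39, SE 0.067) had the next largest differences among non-clustered genes, followed by Pcdh19 (-0.25) and Pcdh9 (-0.21). These values average over both genotypes. Mean Pcdh9 levels in the other prefixes and in prefixes 119 and 141 were 222 and 167 CPM in wild-type mice. In heterozygotes they were 221 and 218 CPM. Pcdh1 ran from 229.7 to 310.1 CPM in the other prefixes and from 177 to 224 CPM in prefixes 119 and 141. It and Pcdha3, at 4.27 to 6.57 against 3.36 to 4.24 CPM, were the members whose sets did not overlap, as was so in 6.16% of all genes. Pcdha3 had a log2 difference of -0.54 (SE 0.13), Pcdha1 of -0.30 (SE 0.069), Pcdhb17 of -0.34 (SE 0.081) and Pcdhga11 of -0.16 (SE 0.052), each called by edgeR. Among beta genes Pcdhb12 (-0.40), Pcdhb9 (-0.30) and Pcdhb22 (-0.30) were also lower, whereas Pcdhb4 had a difference of -0.090 that did not pass. Mean Pcdhb4 levels fell from 5.42 CPM in the other prefixes to 3.95 CPM in prefixes 119 and 141 in wild-type mice. In heterozygotes they rose from 5.34 to 6.73 CPM.

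The other non-clustered genes did not pass the test between sets. Pcdh10 (-0.083), Pcdh17 (-0.072), Pcdh18 (-0.049), Pcdh20 (-0.041) and Pcdh11x (0.0083) had differences near 0. Pcdh15 lay in the opposite direction at 0.15 (SE 0.066, adjusted p = 0.0686 by edgeR), with 23.8 ± 1.90 CPM in the other prefixes (n = 8) and 26.7 ± 2.20 CPM in prefixes 119 and 141 (n = 6). In the same contrast astrocyte markers were higher, 11 of 12 called with a median log2 difference of 0.47, and 7 of 12 excitatory neuron markers were lower and 1 higher. Their part in the protocadherin result was not tested.

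**Figure D5:**
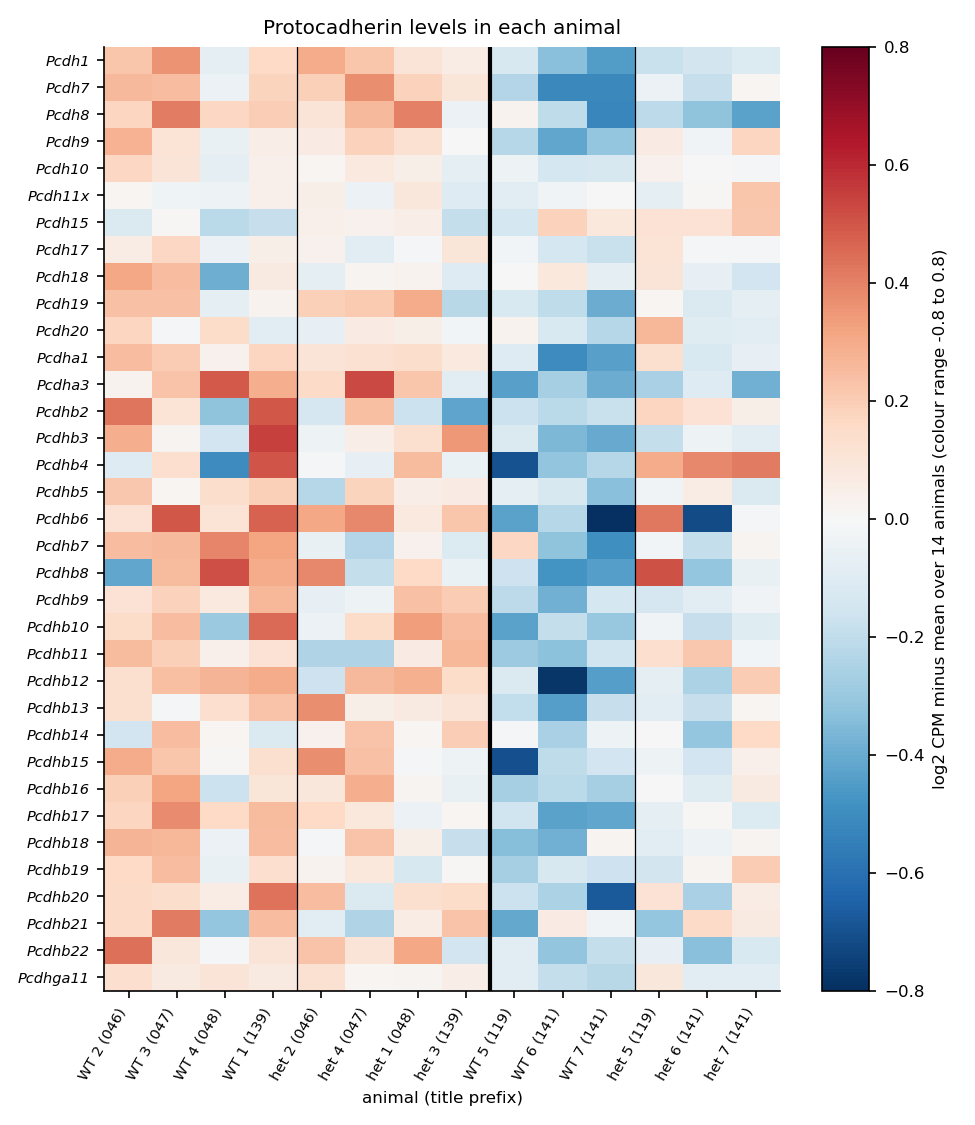
Log2 CPM of each tested member (rows) in each animal (columns, with the title prefix) minus its mean over 14 animals, red above and blue below on a colour scale cut at -0.8 and 0.8. In each of the 3 wild-type animals of prefixes 119 and 141, 32 of 35 members lie below their mean. The same share over all genes was not computed.

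No difference between the sexes was detectable in these genes. None of 35 members passed the comparison of females with males, where 0.00724% of genes did, DESeq2 called 0 members, and 3 members (Pcdh20, Pcdhb22 and Pcdhb21) were at an unadjusted p under 0.05, against 6.98% of genes (3.78% higher and 3.2% lower in females). The X-linked genes Pcdh11x and Pcdh19 had log2 differences (female over male) of 0.019 (95% interval -0.11 to 0.15) and -0.15 (95% interval -0.35 to 0.054). Values were positive in 11 of 24 clustered and 2 of 11 non-clustered genes, against 50.3% of all genes. With the set of prefixes added to the model, these counts were 15 of 24 and 2 of 11. The smallest p was that of Pcdh20, at -0.17 (SE 0.065, adjusted p = 0.676 by edgeR).

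Genes that act with protocadherins or belong to the same superfamily were examined as 7 lists. They held 20 tested regulators of promoter choice and chromatin, 22 kinases and cytoplasmic partners, 12 surface partners, 6 genes of the Pcdh15 mechanotransduction complex, 18 classical and type II cadherins, 14 other large cadherins and calsyntenins, and 12 catenins. Across 14 animals the only call in these lists was Dnmt3a, the targeted gene, at a log2 fold change of -0.57 (SE 0.075, adjusted p = 0.00774 by edgeR). In the animals of prefixes 119 and 141, Smc1a, a cohesin subunit, was higher at 0.37 (SE 0.10, adjusted p = 0.0419 by edgeR). Wasf3, a subunit of the WAVE complex that builds branched actin, was lower at -0.29 (SE 0.069, adjusted p = 0.0193 by edgeR). Cdh11, a type II cadherin, was higher at 0.27 (SE 0.071, adjusted p = 0.0329 by edgeR). The calsyntenins are synaptic proteins with cadherin repeats, and Clstn1 was higher at 0.39, Clstn2 at 0.37 and Clstn3 at 0.33 (adjusted p = 0.0242, 0.0338 and 0.0403 by edgeR). These 3 genes were also among the lower genes of prefixes 119 and 141 as a set, at log2 differences of -0.50, -0.32 and -0.49. Smc1a was lower in that set too, at -0.23 (adjusted p = 0.0232 by edgeR), whereas Wasf3 and Cdh11 did not pass there. Positive values numbered 13 of 20 in the first list, 13 of 22 cytoplasmic and 8 of 12 surface partners, 0 of 6 genes of the Pcdh15 complex, 11 of 18 and 9 of 14 cadherins and 5 of 12 catenins. The shares over all genes in this comparison were 4.87% called and 49.9% positive. These calls were also lost without wild-type replicate 6, where 0 genes passed. The difference of the genotype effect between the sets passed for none of these genes by edgeR without a block.

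Length and level of the members called by genotype in prefixes 119 and 141 varied widely. Pcdh9 and Pcdh7 span 879 kb and 417 kb in the annotation. The spans of Pcdh15 and Pcdh11x, which were not called (log2 fold changes of 0.11 and 0.091), are 1554 kb and 620.4 kb. The part of gene length in these values was not tested. Pcdhb4 spans 3.72 kb, nearly all of it exon, as is usual for beta genes. By level, Pcdh9 and Pcdh7 are among the 4 highest non-clustered genes per length, while Pcdhb4, at 1.44 ± 0.342 CPM per kb, is in the lower part of the beta genes.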

How the data were processed

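RNA counts per gene were deposited by the authors as whole numbers for 14 animals, 1 column each. Trim Galore, Bowtie, STAR and bedtools and the mm9 build are named per the submitters' processing notes, without their roles, and the strand setting of the counting is not stated. A table by the authors gives, per the file headers, a log2 fold change, a test statistic (a score with no fixed range), and the p-value of each gene before and after adjustment, over the same animals. That table was used only where it is named.

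Genes were filtered with filterByExpr by genotype, which left 13815 of 34193 genes holding 99.9% of all counts. Library sizes were scaled by TMM, and CPM values (counts per 1e6 of library size) use the scaled sizes. The main test was edgeR 4.0.16 (quasi-likelihood F test, robust, R 4.3.3), with limma 3.58.1 and Benjamini-Hochberg adjustment over all tested genes at 0.05. Genotype and sex were tested in a model of both. Genotype differences within each set of prefixes, and their difference between the sets, came from a model of all 14 animals with sex, set and genotype within set. Levels were compared between the sets in a model of sex, genotype and set. That model holds a common genotype term, so a genotype effect that differs between the sets stays in its spread. SE is the size of the log2 fold change divided by the square root of F, and intervals are 95%. Annotated lengths and promoters are of GRCm38, another build than the counts, with exon lengths from GENCODE and gene spans from RefSeq.

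Members were named where they were non-clustered, had the highest mean CPM or the smallest genotype p in each direction in an array, or passed a test (up to 10 per comparison). Others named as the ends of a range or in a short count were chosen after their values were seen. The members, gene lists and comparisons were chosen with earlier results of these data known. Each title prefix held both genotypes. The deviations of the 9 same-prefix pairs correlated at r = 0.200 to 0.517, and at -0.33 to -0.00545 once sex and set were removed. Removing these terms from so few animals itself pulls correlations below 0, and pairs of different prefixes were not compared. The values therefore do not show whether a prefix pairs its animals. Simulated counts held 13815 genes and no difference between the sets. From them edgeR recovered 19.4% of 1.25-fold and 74.6% of 1.5-fold changes in prefixes 119 and 141, and 35.8% and 76.1% in the other prefixes. The alternatives were DESeq2 1.42.0, RLE scaling, no filter, the prefix as a block, the set as a term, each set fitted alone and each animal left out.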

Additional observations from a re-analysis of the deposited data

Results flagged for a closer look

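In 4 of 96 groups of animals examined for 20 members and the summed levels, 1 animal stood far from the others of its group. Chance gives about 1 in 20 such groups. The groups were each genotype over all animals and each genotype in prefixes 046, 047, 048 and 139, so they overlap. The 3 animals of each genotype in prefixes 119 and 141 were not examined as groups of their own. Pcdh15 was at 21.8 CPM in heterozygous replicate 3, where the nearest of the 4 heterozygotes of prefixes 046, 047, 048 and 139 was at 25.5 CPM. Pcdh20 was at 51.1 CPM in heterozygous replicate 5, where the nearest of the 7 heterozygotes was at 44.6 CPM. Pcdh8 was at 77.8 CPM in wild-type replicate 3, where the nearest of the 4 wild-type animals of the same 4 prefixes was at 67.2 CPM. Pcdhb4 was at 6.21 CPM in heterozygous replicate 1, where the nearest of the 4 heterozygotes of those prefixes was at 5.15 CPM.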

How the results depend on the processing

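For genotype over 14 animals, called genes (2) numbered 11 by DESeq2, 56 with the title prefix as a replicate block, 15 with the set as a term and 1 to 4 with 1 animal left out, with 0 protocadherins each time. In prefixes 119 and 141, called genes (673) numbered 1244 without a filter and 2304 with 7 protocadherins for the 6 animals alone with the prefix as a block. With 1 animal left out they ran from 0 without wild-type replicate 6 to 1879 without wild-type replicate 5, and protocadherins from 0 to 6. In the other prefixes, called genes (1) numbered 3 by DESeq2, 50 without a filter, 0 in those animals alone, 2 with the block and 0 to 3 with 1 animal left out. The difference of the genotype effect between the sets had 250 genes and 2 protocadherins by DESeq2 and 381 and 2 without a filter. It had 767 and 4 with the block, and 0 to 850 and 0 to 5 with 1 animal left out. The difference in level between the sets had 4654 to 5483 genes and 15 to 21 protocadherins with 1 animal left out. Sex had 11 genes by DESeq2, 9 without a filter, 17 with the set added and 1 to 12 with 1 animal left out. Positive values with 1 animal left out numbered 3 to 8 clustered and 1 to 7 non-clustered by genotype in the other prefixes. They numbered 0 to 1 and 1 to 2 for the level between sets, and 7 to 16 and 2 to 4 by sex. Values near 0 changed sign. Over 14 animals, Pcdha3 (-0.0025) was at 0.00076 by DESeq2, 0.0014 without a filter, 0.013 with the block, 0.020 with the set term and -0.10 to 0.091 with 1 animal left out. Pcdhb17 was at 0.00033 with the block and -0.086 to 0.055 with 1 animal left out. With 1 animal left out, Pcdh8 ran from -0.15 to 0.012, Pcdh1 from -0.0066 to 0.14 and Pcdh20 from -0.0024 to 0.061. In the other prefixes Pcdh9 ran from -0.067 to 0.060, Pcdh7 from -0.025 to 0.084 and Pcdhb4 from -0.14 to 0.16, and by sex Pcdh11x ran from -0.013 to 0.039. The causes of these changes were not tested.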
